A study of Mus musculus with 18 samples.

Results

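DNA methylation in the windows of 5 genes of the blood transcription factors was compared between WT and Dnmt3aR878H/+ mice, in CD11b+ cells (myeloid) and CD4+ cells (T helper lineage) of the spleen. The genes are *Gata2*, *Gata3*, *Tal1*, *Lmo2* and *Lyl1*, and a window is the annotated gene body with 10 kb added on each side. The windows held 91 of the 411770 regions listed for CD11b+ cells and, of the 553467 regions listed for CD4+ cells, 58 with more than 10 CpG cytosines and 53 with exactly 10. The genes were selected with the measured methylation of these same samples in view, so the losses below are a description of genes selected on such values and carry no test.

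Whole-genome bisulfite sequencing (WGBS) measures how often a given cytosine is methylated, since bisulfite turns those without a methyl group into uracil and spares the others. The mice were C57BL/6 animals, and each of the 4 groups (2 genotypes in 2 cell types) had 4 mice, with the 6 entries of Dnmt3aR878H/+ CD11b+ cells carrying 4 replicate numbers. Dnmt3aR878H/+ mice (written Dnmt3aR878/+ in the labels) carried 1 R878H allele of the de novo DNA methyltransferase gene *Dnmt3a*, switched on by iCre under the *Vav1* promoter which is active throughout the hematopoietic lineage. WT mice were Dnmt3a+/+, and per the study's methods such controls could carry the Cre alone or the unrecombined allele alone. The mice were young adults matched for sex and age per the study's methods, and the labels give no treatment. The cells of a spleen were enriched on magnetic columns for CD11b or CD4 and measured in bulk, so a mean cannot tell a change inside each cell from a change in the mixture of cells.

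GATA2 and GATA3 are zinc-finger proteins that bind GATA motifs in DNA. GATA2 is needed for hematopoietic stem and progenitor cells, and for mast cells, whereas GATA3 directs T cell development and the T helper 2 fate. TAL1 and LYL1 are related basic helix-loop-helix (bHLH) proteins that pair with E proteins on E-box motifs. LMO2 binds no DNA itself and, together with LDB1, bridges TAL1 or LYL1 to a GATA factor in 1 complex that is best known from stem cells and the erythroid lineage. Of the 5 genes, *Gata3* is the one that mature T cells rely on.

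The deposited values are group means alone, in percent, over the CpG cytosines of a region, with both DNA strands counted. No error between mice, no depth per region and no test could therefore be given. A loss here means that the WT mean exceeded the Dnmt3aR878H/+ mean by more than 20 percentage points in a region of more than 10 CpG cytosines, and a gain means that the Dnmt3aR878H/+ mean was the higher. The tables do not name their groups, and every direction rests on reading the earlier column of means as WT.

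The regions that carry the result are shown here as printed in the mm10 (GRCm38) reference on the + strand, with each CpG in capitals. They are the largest loss of *Gata2* and of *Gata3* in CD11b+ cells, the gain in *Tal1* and the gain in *Lyl1*. The *Gata2* stretch is the central 300 bases of its region, which holds 34 CpGs, and the *Lyl1* stretch is the central 300 bases of a region of 307.
Gata2 loss, upstream, chr6:88190525-88190824: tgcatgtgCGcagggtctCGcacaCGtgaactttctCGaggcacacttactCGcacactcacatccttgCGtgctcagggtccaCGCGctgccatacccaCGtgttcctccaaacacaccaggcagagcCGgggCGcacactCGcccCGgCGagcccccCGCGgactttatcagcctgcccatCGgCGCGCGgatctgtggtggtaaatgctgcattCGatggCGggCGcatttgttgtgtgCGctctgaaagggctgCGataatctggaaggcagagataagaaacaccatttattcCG
Gata3 loss, intron, chr2:9867807-9868089: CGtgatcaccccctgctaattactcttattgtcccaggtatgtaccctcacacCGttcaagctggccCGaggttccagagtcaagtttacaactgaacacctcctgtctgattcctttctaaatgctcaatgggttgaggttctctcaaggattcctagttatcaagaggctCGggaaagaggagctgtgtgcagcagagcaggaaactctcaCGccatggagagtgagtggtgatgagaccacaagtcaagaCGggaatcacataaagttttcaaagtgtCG
Tal1 gain, coding exon, chr4:115063135-115063216: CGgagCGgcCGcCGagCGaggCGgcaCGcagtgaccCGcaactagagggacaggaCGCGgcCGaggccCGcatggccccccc
Lyl1 gain, intron and coding exon, chr8:84703818-84704117: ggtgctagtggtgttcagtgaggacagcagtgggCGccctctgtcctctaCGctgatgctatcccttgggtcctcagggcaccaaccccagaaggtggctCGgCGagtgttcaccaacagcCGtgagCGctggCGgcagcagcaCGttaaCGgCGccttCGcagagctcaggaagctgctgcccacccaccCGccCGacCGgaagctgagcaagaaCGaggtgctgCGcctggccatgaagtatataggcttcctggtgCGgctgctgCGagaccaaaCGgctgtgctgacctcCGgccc
The stretches differed in their CpGs. The *Gata2* loss held 26 CpGs in 300 bases, the *Gata3* loss 7 in 283, the *Tal1* gain 12 in 82 and the *Lyl1* gain 20 in 300.

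Across the 5 genes, as over the whole tables, methylation was lower in Dnmt3aR878H/+ cells at most listed regions of each cell type. For CD11b+ cells, 80 of 91 regions (87.9%) were lower in Dnmt3aR878H/+ mice, where 93.4% of all regions were. The median over the regions of the 5 genes was 64.0% in WT and 30.4% in Dnmt3aR878H/+. In CD4+ cells, 108 regions were lower (97.3%) and 3 were not, where 95.5% of all regions were lower. The medians there were 67.2% and 37.6%. Over the whole tables the medians were 88.9% and 82.0% for CD11b+ cells, and for CD4+ cells 89.9% and 82.4%, so the regions of these genes had lower WT medians than the tables.

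Among regions with more than 10 CpG cytosines, 20 of the 47 in CD11b+ cells were losses (42.6%), where 7.75% of all such regions were. In CD4+ cells, 20 of 58 were losses (34.5%), against 6.89% of all such regions. When every listed region was counted, 30 of 91 (CD11b+) and 32 of the 58 and 53 together (CD4+) lost more than 20 points, against 7.01% and 6.23% of the tables. Since the genes were selected on these same values, nothing is read from the difference in shares. The median difference over the regions with more than 10 cytosines was 17.1 points in CD11b+ cells and 15.9 points in CD4+ cells, where all such regions gave 6.60 and 6.85 points. At the threshold, the smallest loss of CD11b+ cells was 21.2 points at *Lmo2* and the nearest region that missed it was at 19.1 points in *Tal1*. In CD4+ cells the corresponding values were 20.7 points at *Gata2* and 19.8 points at *Tal1*.

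**Figure D1:**
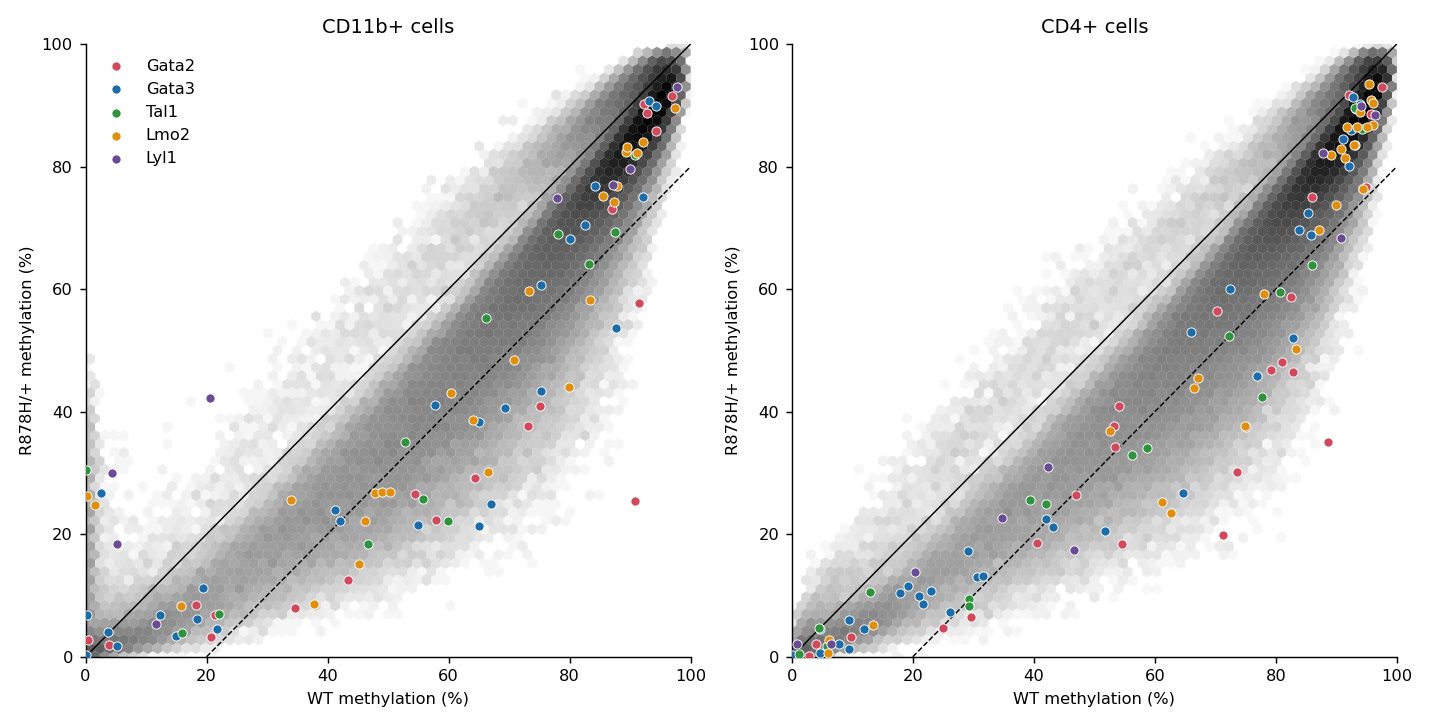
WT methylation (x axis, percent) against Dnmt3aR878H/+ methylation (y axis, percent) of each region in CD11b+ cells (left) and CD4+ cells (right), with the regions of the 5 genes as colored points over the density of all listed regions in gray on a log scale. Points below the dashed line lost more than 20 points, and the 7 points near the left edge above the diagonal in CD11b+ cells, under 10% in WT, are gains above 5 points, with no such point in CD4+ cells.

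The WT levels of these regions also differed from those of the tables. In CD11b+ cells, 37.4% of the regions of the 5 genes had a WT level between 40% and 80%, against 21.6% of all regions. Within that range the median difference was 27.2 points at the 5 genes and 13.7 points over the table. In CD4+ cells 28.8% of the members' regions and 18.4% of all regions were in the range, with median differences of 22.2 and 13.2 points. Regions that WT cells kept above 80% differed less, by a median of 10.1 points in CD11b+ and 8.98 points in CD4+ cells at the 5 genes, and by 5.65 and 6.11 points over the tables. By place, 18 of 34 intronic regions and 5 of 15 regions touching an exon without a start lost more than 20 points in CD11b+ cells. In CD4+ cells the counts were 13 of 41 intronic and 9 of 17 exonic regions. The shares of all intronic and exonic regions of the tables were not computed, so nothing about place is read from these counts.

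*Gata2* (ENSMUSG00000015053.14, chr6:88193891-88207032, + strand) had the deepest loss of the 5 genes. It lay in the region whose center is shown above, at chr6:88190451-88190898, 3.22 kb upstream of the more distal of the 2 annotated starts and inside the noncoding gene *Gm38708*. The 25 cytosines averaged 90.8% in WT and 25.5% in Dnmt3aR878H/+ CD11b+ cells, a loss of 65.3 points that ranked 1 among the 411770 regions of the table. In CD4+ cells a wider region over the same place, chr6:88190164-88190959 with 52 cytosines, averaged 88.6% and 35.0%, a loss of 53.6 points. The WT means of both cell types were thus high there, and the Dnmt3aR878H/+ means of both were far lower. The flanks lost less, since the adjoining region on the distal side in CD11b+ cells (chr6:88190217-88190438) went from 91.5% to 57.8% and the adjoining region on the gene side in CD4+ cells (chr6:88190967-88191396) from 94.9% to 76.7%.

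Motifs were searched in the whole CD11b+ region on both strands. The letters searched for GATA factors were AGATAA, its variant that ends in G (that is, AGATAG), the form TGATAA, and the variant of that form (that is, TGATAG). The letters searched for bHLH proteins were the E-box CAGCTG with its neighbor form CAGATG. The *Gata2* region held 3 GATA matches and 0 E-box matches. A pair of the GATA matches lies in the printed stretch, TGATAA on the - strand at chr6:88190692-88190697 and AGATAA on the + strand at chr6:88190801-88190806. Of windows of that length centered on the listed regions, 55.9% held a GATA match, so such a match is common and does not show binding.

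The *Gata2* gene body also lost methylation. In CD11b+ cells the next losses were an intronic region (chr6:88195863-88196398) that went from 58.0% to 22.3% and a region reaching into a coding exon (chr6:88200724-88202133) that went from 73.2% to 37.7%. In CD4+ cells a coding-exon region (chr6:88200314-88200487) went from 71.3% to 19.9%, and the intronic region (chr6:88195951-88196426) from 73.7% to 30.2%. The intronic loss lies upstream of the more proximal start and overlapped between the cell types. In all, 9 of 19 *Gata2* regions of CD11b+ cells and 13 of 25 of CD4+ cells lost more than 20 points, of which 5 and 9 had more than 10 cytosines. The region over the distal start, listed in CD4+ cells, was at 4.01% in WT and 2.15% in Dnmt3aR878H/+, and regions of the body at chr6:88196787-88197065 and chr6:88203040-88203233 in CD11b+ cells were at 3.85% and 1.98%, and at 0.475% and 2.70%. The sites that WT cells already kept unmethylated therefore stayed low, and no *Gata2* region gained over 5 points in either cell type.

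**Figure D2:**
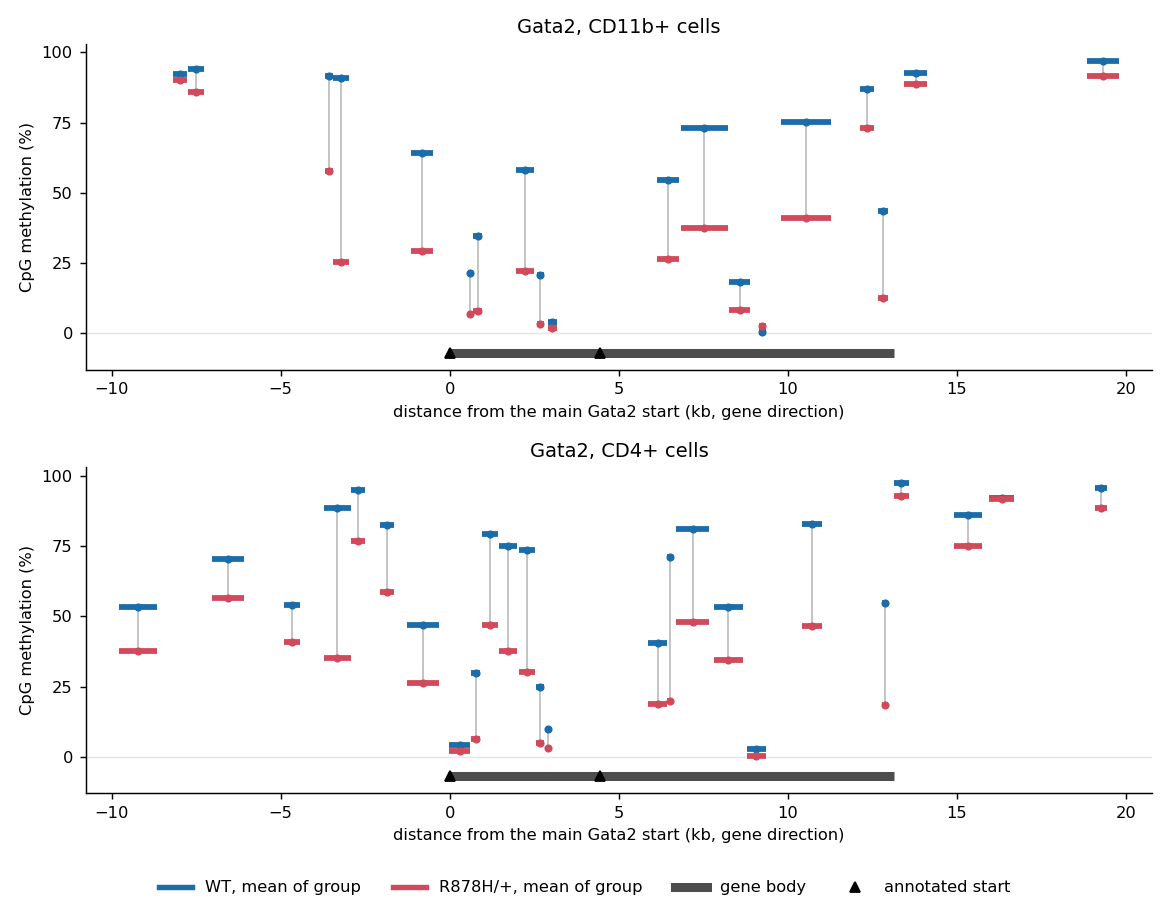
CpG methylation (y axis, percent) of each listed region of the *Gata2* window by its distance from the distal start (x axis, kb, upstream negative) in CD11b+ cells (top) and CD4+ cells (bottom). Bars span each region at its WT (blue) and Dnmt3aR878H/+ (red) group mean, with a dot at the center and a gray line joining the pair, and the longest gray line in each panel is the upstream region that lost 65.3 points in CD11b+ and 53.6 points in CD4+ cells.

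*Gata3* (ENSMUSG00000015619.10, chr2:9857078-9890034, - strand) lost methylation in its introns, while the stretch around its start was unmethylated in WT CD11b+ cells. CD4+ cells had no listed region over that start. In CD11b+ cells the largest loss was the intronic region shown above, chr2:9867807-9868089, 10.7 kb into the gene, which went from 65.0% to 21.3%. Its 1 GATA match, TGATAA on the - strand, is at chr2:9867966-9867971, and 40.6% of windows of that length held a match. The next were chr2:9875726-9876523, from 67.0% to 24.9%, and chr2:9875002-9875415, from 87.6% to 53.6%, both intronic. In CD4+ cells, where *Gata3* is a working gene of the lineage, the largest loss covered an exon and the introns beside it (chr2:9868720-9870100, 32 cytosines) and went from 64.6% to 26.7%. The counterpart of the top intronic region of CD11b+ cells went from 51.7% to 20.6% in CD4+ cells, and a region 19.6 kb upstream of the start (chr2:9898052-9898260) from 76.9% to 45.8%.

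Among the matched *Gata3* regions, WT levels of the cell types differed most in an intron 2.48 kb past the start. The region at chr2:9875726-9876523 was at 67.0% in WT CD11b+ cells, but its counterpart in CD4+ cells was at 29.2%. Dnmt3aR878H/+ cells ended at 24.9% and 17.3%, so the drop was 42.1 points in CD11b+ cells and 11.9 points in CD4+ cells. The other large gap was upstream, where chr2:9880100-9880636 was at 18.5% in WT CD11b+ cells and the overlapping region of CD4+ cells at 42.0%. Whether these gaps exceed the spread between mice could not be tested on group means.

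A gain stood inside *Gata3* in CD11b+ cells. The region at chr2:9877415-9877654, over a coding exon and its untranslated part and also under the antisense noncoding gene *Gm13256*, was at 2.54% in WT and 26.7% in Dnmt3aR878H/+. The region over the start itself, chr2:9878590-9878640, was at 0.200% and 6.88%. The neighboring upstream region in the same cells (chr2:9878644-9879171) stayed at 0.00% and 0.275%. In CD4+ cells the region that adjoins the gain (chr2:9877316-9877416) was at 0.00% and 0.325%. The gain thus faded toward the upstream side of the start, and the table of CD4+ cells listed no region across its full length. In all, 7 of 27 regions of CD11b+ cells and 5 of 33 of CD4+ cells lost more than 20 points, of which 4 and 2 had more than 10 cytosines.

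**Figure D3:**
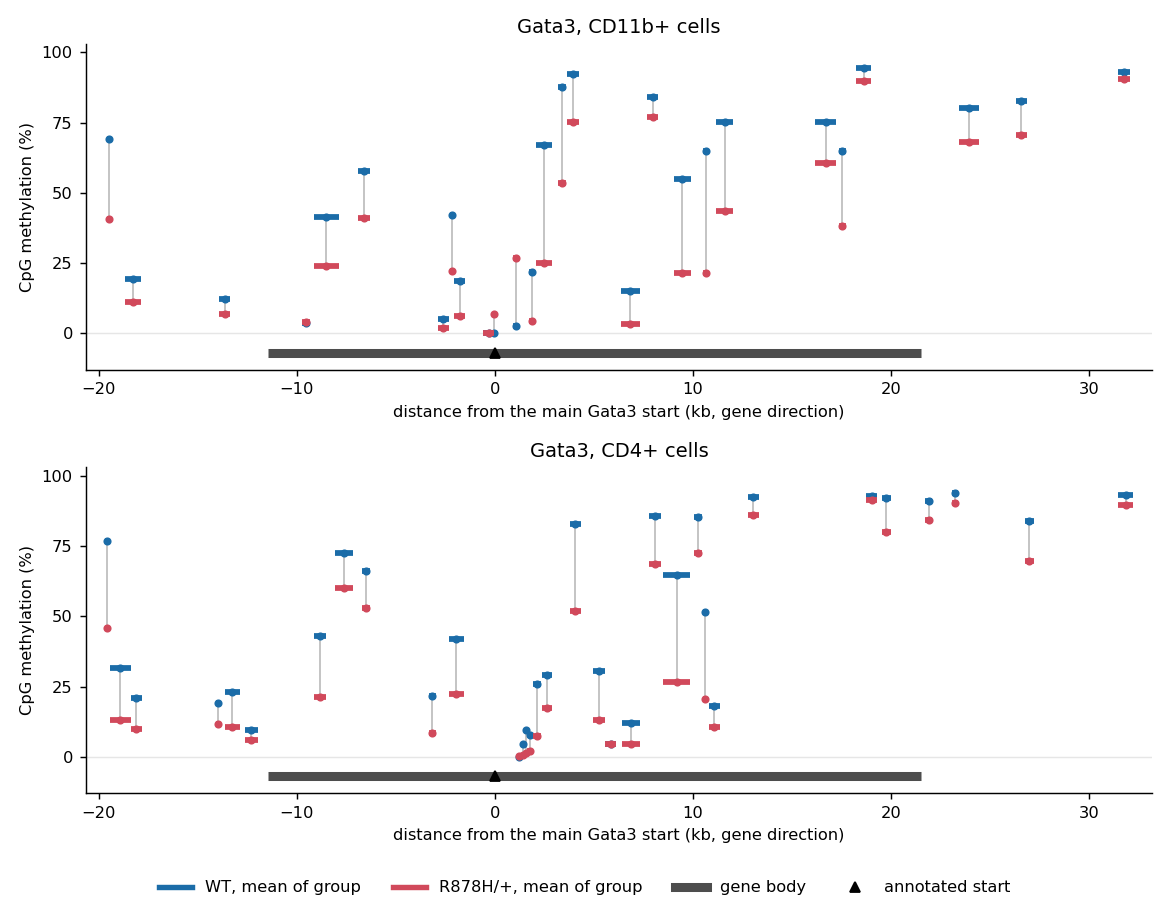
CpG methylation (y axis, percent) of each listed region of the *Gata3* window by distance from its main start (x axis, kb, in the direction of transcription) in CD11b+ cells (top) and CD4+ cells (bottom), drawn as for *Gata2*. Red lies above blue in CD11b+ cells at 1.07 kb past the start, where methylation was 2.54% in WT and 26.7% in Dnmt3aR878H/+, and the gene body bar extends to the left of the main start because the annotation holds longer transcripts.

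*Tal1* (ENSMUSG00000028717.12, chr4:115056426-115071755, + strand) lost methylation in the introns past its 3 annotated starts. In CD11b+ cells the largest losses were chr4:115059963-115060419, from 60.0% to 22.2%, chr4:115060848-115061388, from 55.8% to 25.8%, and chr4:115064196-115064511, from 46.7% to 18.4%. Each had 10 cytosines, so none of the 3 counts as a loss by the rule, and *Tal1* had 0 such losses among its 4 longer regions in CD11b+ cells. In CD4+ cells the same places gave 77.7% and 42.3%, 58.7% and 34.2%, and 56.2% and 33.0%. The leading region of both cell types, 3.77 kb past the distal start, was thus less methylated in WT CD11b+ cells than in WT CD4+ cells and fell by a like amount, 37.8 and 35.3 points. By the rule, 3 of the 5 longer *Tal1* regions of CD4+ cells were losses.

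The 82-bp gain printed above lies wholly in coding sequence of *Tal1*. Its 10 measured cytosines averaged 0.00% in WT and 30.4% in Dnmt3aR878H/+ CD11b+ cells. The nearest region of CD4+ cells, chr4:115062727-115063054, was at 1.28% and 0.375%. The gain held 0 GATA and 0 E-box matches, where 13.7% and 10.5% of windows of that length held one. No *Tal1* start was covered by a listed region in either cell type.

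*Lyl1* (ENSMUSG00000034041.4, chr8:84701457-84704715, + strand) showed the smallest losses in CD11b+ cells. The largest of its 8 regions there was 10.4 points, at chr8:84713367-84714400, from 90.0% to 79.6%, followed by chr8:84692837-84693624, from 87.1% to 77.0%, and chr8:84699936-84700204, from 11.7% to 5.43%. The window is crowded: the outer pair lie in the neighboring genes *Nfix* and *Trmt1*, and the third lies within the annotated *Nfix* locus as well. In CD4+ cells the largest losses were chr8:84707968-84708917, from 46.7% to 17.4%, chr8:84713731-84713847, from 90.8% to 68.4%, and chr8:84702170-84702765, from 34.8% to 22.6%. Only the last of these touches a *Lyl1* exon. The others lie downstream in *Nfix*, so the values describe the neighborhood of *Lyl1* more than the gene.

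*Lyl1* held 3 gains in CD11b+ cells. The region with the printed stretch, chr8:84703815-84704121, covers an intron and a coding exon and went from 4.45% to 29.95%. The others, downstream, were chr8:84705916-84706230, from 5.20% to 18.4%, and chr8:84708482-84708706, from 20.6% to 42.3%. All 3 had 10 cytosines and also lie in the *Nfix* locus. In CD4+ cells the region over the *Lyl1* exon (chr8:84703741-84703971) was at 0.865% and 2.06%, and a longer region of 950 bp that contains the last of the 3 gains lost 29.3 points. The 2 regions differ in length and WT level, so the direction within the shorter stretch in CD4+ cells is not given by these values.

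*Lmo2* (ENSMUSG00000032698.15, chr2:103957986-103981878, + strand), the bridging member, had the most losses by the rule in CD11b+ cells, with 11 of its 16 longer regions. The region over the distal start (chr2:103957678-103958684) went from 66.6% to 30.2% in CD11b+ cells, and its counterpart in CD4+ cells (chr2:103957679-103958542) from 83.4% to 50.2%. The other leading losses in CD11b+ cells were intronic, chr2:103973525-103974783 from 79.8% to 44.0% and chr2:103972586-103973111 from 45.3% to 15.1%. In CD4+ cells they were chr2:103968309-103969023, from 62.6% to 23.4%, chr2:103972586-103973111, from 74.9% to 37.6%, and chr2:103975784-103976193, over a coding exon, from 61.3% to 25.2%. Methylation was thus lower in Dnmt3aR878H/+ cells of both kinds at the distal start and in the introns on either side of the proximal starts. The distal-start region of CD4+ cells had 10 cytosines and so does not count as a loss by the rule. All but the distal-start region also lie inside *4931422A03Rik*, a gene annotated across the *Lmo2* body.

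The WT level of *Lmo2* was lower in CD11b+ cells than in CD4+ cells in 11 of 13 matched regions, by a median of 10.5 points over the 13. The share over all matched regions of the tables is not given here, so this is not read as a trait of *Lmo2*. Over the whole tables the WT median was also lower in CD11b+ cells, at 88.9% against 89.9%. At chr2:103972586-103973111, listed with the same ends in both, WT cells were at 45.3% and 74.9% and Dnmt3aR878H/+ cells at 15.1% and 37.6%. The exonic region at chr2:103975784-103976193 was at 61.3% in WT CD4+ cells but at 34.0% in WT CD11b+ cells, and lost 36.0 points in the former and 8.38 points in the latter. The unmethylated proximal promoter of *Lmo2* gained in CD11b+ cells. There chr2:103970149-103970355, which contains 2 annotated starts, went from 1.64% to 24.8%, and chr2:103970441-103970543, in the exon that follows, from 0.250% to 26.3%. CD4+ cells had no listed region over either, and their nearest ones (chr2:103969060-103969588 and chr2:103971043-103971442) were at 6.00% and 0.538%, and at 6.17% and 2.67%.

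**Figure D4:**
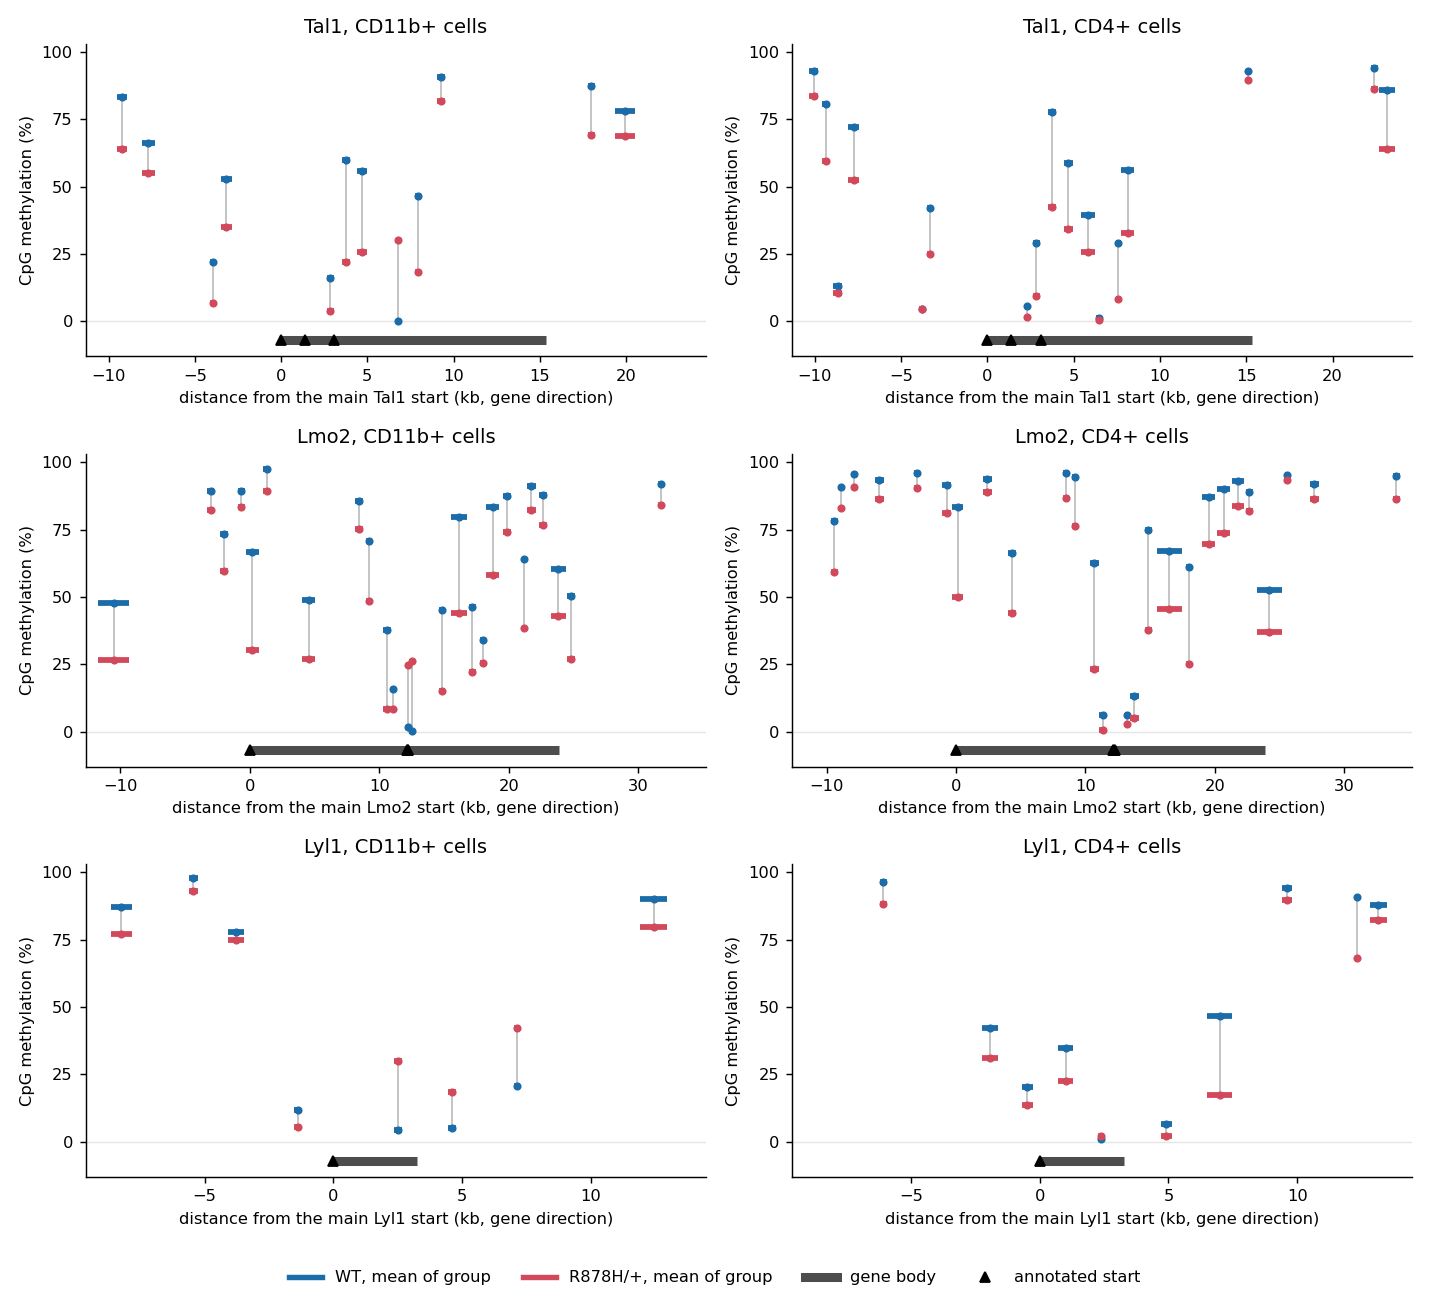
CpG methylation (y axis, percent) of each listed region of *Tal1* (top), *Lmo2* (middle) and *Lyl1* (bottom) by distance from the main start (x axis, kb) in CD11b+ cells (left) and CD4+ cells (right), drawn as for *Gata2*. In the left panels red lies above blue at 1 region of *Tal1*, 2 of *Lmo2* and 3 of *Lyl1*, all gains of more than 5 points, whereas no region of the right panels gained that much.

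Gains above 5 points at the 5 genes were listed for CD11b+ cells only. Of these regions, only the *Lyl1* exon region had a match in CD4+ cells by the 50% rule given below. For the others the 2 cell types are not compared over the same stretch. Of 91 regions, 8 gained more than 5 points in CD11b+ cells, where 1.55% of all regions did, and 6 gained more than 20 points, where 0.209% did. Unlike the losses, these counts have no minimum of cytosines. Among the 47 regions with more than 10 cytosines, 3 gained more than 5 points and 3 more than 20. Of all 172177 such regions, 2460 and 513 did. In CD4+ cells 0 of the regions gained more than 5 points, against 0.702% of all regions, and hence 0 gained more than 20, against 0.00976%. With gains so rare in that table, 0 among these regions is near its share, and nothing is read from it. Most gains lay in CpG-dense sequence. The 8 had a median of 10.9 CpGs per 100 bp, with the region downstream of *Lyl1* lowest at 2.67. All gains above 5 points of the table had a median of 3.59. For the 6 gains above 20 points the median was 11.8, near the 10 of all 859 such gains of the table. The members' regions that lost more than 20 points in CD11b+ cells had a median of 2.09. Gains of this kind were also found at other genes. Of all 8415 regions of CD11b+ cells under 10% in WT, 9.27% gained more than 20 points, with a median Dnmt3aR878H/+ level of 29.4%, and of the 12 such regions of the 5 genes 5 did. In CD4+ cells 2 of 7855 did, and 0 of the 16 of the 5 genes.

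The spread of the gains among mice is not in the tables. Whether a gain was shared by all 4 mice cannot be told apart from a larger gain in some of them. CD11b+ cells of Dnmt3aR878H/+ mice are also the group with 6 entries for 4 replicate numbers, and the part of the second entries in the gains was not tested. In CD4+ cells, the labels of all Dnmt3aR878H/+ entries carry sample numbers from a higher series than those of most WT entries. Among CD11b+ entries, the second entries of Dnmt3aR878H/+ replicate numbers carry sample numbers from that higher series, and no WT entry does. What the series stand for is not stated, and their part in the differences between genotypes was not tested.

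The regions of the 2 cell types were matched where each covered at least 50% of the other. Of 39 such pairs, the loss was larger in CD11b+ cells in 19 and in CD4+ cells in 19, and the *Lyl1* pair lost in neither, with median differences of 17.8 and 20.2 points. WT levels were higher in CD4+ cells in 26 of the 39. The shares over all matched regions of the tables are not given here, so nothing about these genes is read from the counts of pairs. By gene, the pairs numbered 7 at *Gata2*, 12 at *Gata3*, 6 at *Tal1*, 13 at *Lmo2* and 1 at *Lyl1*. The losses by the rule overlapped by at least 1 bp in 11 of the 20 of CD11b+ cells (55.0%) and in 11 of the 20 of CD4+ cells (55.0%), where 47.6% and 37.6% of all losses of the tables did. With the 50% rule used for the pairs, 8 of the 20 of each cell type overlapped, where 34.8% and 27.3% of all losses did. *Gata2* and *Lmo2* supplied most of the losses, 5 and 11 of the 20 in CD11b+ cells and 9 and 5 of the 20 in CD4+ cells.

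**Figure D5:**
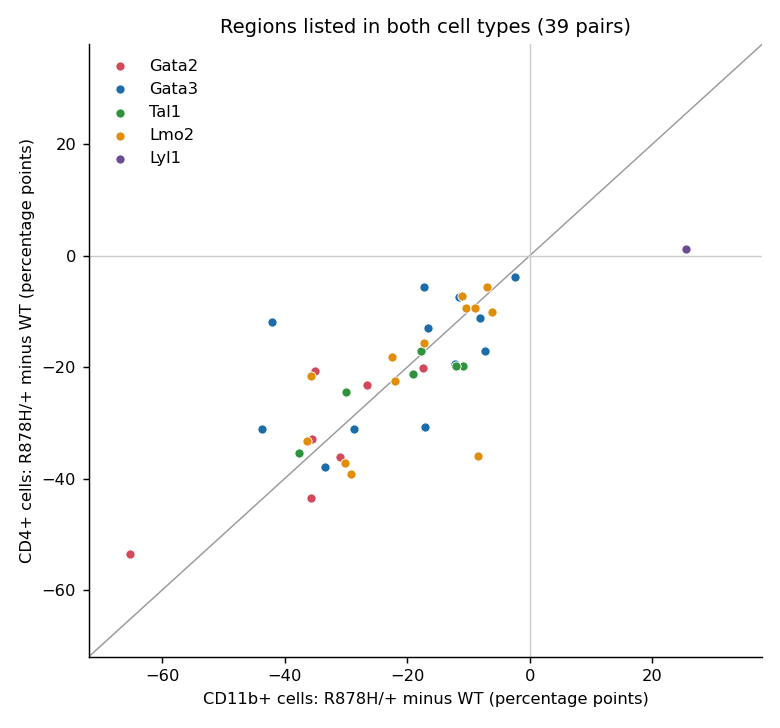
Difference in methylation (Dnmt3aR878H/+ minus WT, percentage points) in CD11b+ cells (x axis) against CD4+ cells (y axis) for the 39 pairs of matched regions, colored by gene, with the line of equal differences. The *Gata2* upstream region is at the lower left, and the *Lyl1* exon region, which gained 25.5 points in CD11b+ cells, stands alone on the right.

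The partners of the complex were described from a list of 18 genes for other members of the complex, its cofactors and the factors that bind beside it, chosen with earlier results of these data known. In CD11b+ cells 70 of their 366 longer regions were losses (19.1%), with a median difference of 8.67 points, and in CD4+ cells 82 of 495 (16.6%), with a median of 8.63 points, beside the 7.75% and 6.89% given above for all regions. A loss in both cell types was found at 12 of the 18 genes (66.7%) and at 23.1% of all 21951 protein-coding genes, but the partners' windows held more regions, with medians of 11 longer regions in CD11b+ and 14.5 in CD4+ cells against 4 and 6 over all genes. The partners are given here by the larger of the losses in the 2 cell types. Each pair of values is a single region, the largest loss of the gene's window in that cell type, and does not describe the whole gene. The regions of the 2 cell types do not overlap at *Fli1*, *Tcf4* and *Zfpm1*. Among the named genes, losses ranged from 6 of 81 longer regions (*Tcf4*) to 5 of 8 (*Ssbp4*) in CD11b+ cells. In CD4+ cells they ranged from 2 of 18 (*Rcor1*) to 4 of 12 (*Cbfa2t2*). *Runx1*, the core stem cell factor, had the largest, from 74.1% to 15.7% in CD11b+ and from 83.1% to 28.5% in CD4+ cells. *Ssbp4*, which encodes a protein that stabilizes LDB1, gave 82.4% to 36.7% and 89.8% to 45.9%. The ETS factors of the same network were close to it, *Erg* with 53.5% to 16.0% and 68.3% to 22.8%, and *Fli1* with 78.8% to 34.4% and 62.1% to 18.7%.

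The other partners named by the rule were 1 E protein and 3 cofactors. At the E protein gene *Tcf4* the leading region went from 70.2% to 38.4% in CD11b+ cells. Another region led in CD4+ cells and went from 55.3% to 12.1%. At *Zfpm1*, which encodes the GATA cofactor FOG1, separate regions went from 71.4% to 32.0% in CD11b+ and from 74.5% to 32.5% in CD4+ cells. The corepressor genes *Rcor1* and *Cbfa2t2* went from 75.6% to 36.1% and from 40.6% to 6.67% in CD11b+ cells, and from 87.3% to 49.8% and from 49.9% to 12.7% in CD4+ cells. *Runx1* and *Fli1* each held 1 gain above 20 points in CD11b+ cells, and no partner did in CD4+ cells. *Gata1*, the erythroid GATA factor, had no listed region (0) for CD11b+ cells, and its 5 for CD4+ cells held no loss by the rule.

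The paralogs of the 5 genes that were listed for comparison were *Gata4*, *Gata5*, *Gata6*, *Tal2*, *Lmo1*, *Lmo3* and *Lmo4*. Of their longer regions, 2 of 48 in CD11b+ cells and 3 of 72 in CD4+ cells were losses (4.17% in each), with median differences of 7.57 and 7.75 points. *Lmo4* alone had a loss in both, from 61.7% to 40.9% and from 72.1% to 49.7%. The paralogs' shares rest on 2 and 3 losses and were below the tables' 7.75% and 6.89%, whereas their medians were above the 6.60 and 6.85 points of all such regions. Nothing is read from a contrast with the 5 genes, which were selected on the losses.

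The labelled cell types were compared with marker genes by the WT level within 1 kb of their starts. Of 8 myeloid markers 5 had a region in both tables, and all 5 were lower in CD11b+ cells, with medians of 50.9% and 81.9%. *Itgam*, which encodes CD11b, differed little, at 79.4% and 81.9%. Of 9 markers of CD4+ T cells only *Bcl11b* and *Tcf7* had a region in both. In CD11b+ and CD4+ cells *Bcl11b* was at 3.3% and 3.9%, and *Tcf7* at 17.2% and 14.6%. With so few genes, and 1 lower in each cell type, that list does not tell the cell types apart. Of 5 B cell markers the 3 with regions in both were lower in CD11b+ cells (medians 31.6% and 61.6%). The 2 CD8 T cell markers had no region in both tables, and of 5 erythroid markers 2 did, with medians of 74.9% and 75.6%. The part of other cells in the losses and gains was not tested.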

How the data were processed

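WGBS libraries came from splenic CD11b+ and CD4+ cells of WT and Dnmt3aR878H/+ mice, 4 mice per group. The authors mapped reads to mm10 with BISCUIT and divided the CpGs into regions with metilene, and deposited 1 table per cell type. The deposited columns used were the region, its number of CpG cytosines and each group's mean CpG methylation, as a percent. Columns of the authors' own comparison, namely q-values, p-values and differences, were not used. The loss rule takes the size and the minimum count of the study's criteria for a differentially methylated region, without its false discovery rate. The study words that count in CpGs, whereas the rule here applies it to cytosines, with both strands counted. A region can thus pass with fewer CpGs than the study's wording asks for. The largest *Gata3* loss of CD11b+ cells passed with 12 cytosines and held 7 CpGs. Tool versions, the settings metilene was run with and a coverage minimum are not given in the sources used here. The tables hold 0 columns of values per mouse, so the depth behind each region and the spread between mice are unknown, and the number of replicates limits precision by an unknown amount.

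The files show that every region held at least 10 cytosines and that both strands were counted, since 42.2% (CD11b+) and 40.7% (CD4+) of regions began at the G of a CpG. Where a region had 10 cytosines, 100% of group means were whole multiples of the step that 4 values in whole percents give, so each group mean was taken as that of 4 mice of equal weight.

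Differences were recomputed as WT minus Dnmt3aR878H/+. Windows were GENCODE M21 gene bodies with 10 kb on each side, and a region counted from 1 bp of overlap. Coordinates are mm10, counted from 1, and sequences came from the RefSeq copy of the same build, GRCm38. The rule named, per gene and cell type, the 3 largest losses, the gains above 5 points and the regions over a start, and at most 8 genes of a list with a loss in both cell types. Other regions named adjoin or match these and were picked after their values were seen. The members and the lists were chosen with earlier results of these data known. Alternatives changed the loss, the cytosine minimum, the window, the overlap and the weighting. The counting was tested on simulated tables. Python 3.11.15, pandas 2.3.3, numpy 2.4.6 and pysam 0.24.0 were used.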

Additional observations from a re-analysis of the deposited data

How the results depend on the processing

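The main counts of losses were 20 in CD11b+ and 20 in CD4+ cells, and the main medians 17.1 and 15.9 points. A loss above 30 points left 11 of 47 and 13 of 58 regions, where 3494 of all 172177 and 4184 of all 247222 such regions lost as much. A loss above 10 points gave 34 and 38 of the same 47 and 58. More than 20 cytosines left 7 losses among 9 regions and 7 among 10, with medians of 33.4 and 31.8 points. The shares over all regions at 10 points and at 20 cytosines are not given here. Leaving out regions in another protein-coding gene gave 12 losses among 31 regions in CD11b+ cells, where the 8 that dropped out were *Lmo2* regions in *4931422A03Rik*. The medians were then 14.7 and 18.3 points. With 5 kb on each side the medians were 19.7 and 17.8 points, within gene bodies alone 19.7 and 19.3, with weighting by cytosines 21.2 and 18.2, and for regions wholly inside the windows 17.2 in CD4+ cells. Counting all listed regions, an alternative chosen after seeing the data, gave 32 losses in CD4+ cells and medians of 13.1 and 12.4 points. Losses of CD11b+ cells that overlapped a loss of CD4+ cells numbered 11 of 20, with 8 of 20 under a reciprocal overlap of 50%. They numbered 22 of 34 with a loss above 10 points, 6 of 11 above 30 points and 21 of 30 over all listed regions. Shares over all losses are given above for the main setting and the reciprocal overlap only. No setting reversed a median. No paired analysis was possible because the tables hold group means alone, and no replicate could be left out for the same reason. The depth of each region is unknown, and regions of 10 cytosines rest on the fewest values.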
